A study of Sus scrofa with 5 samples.

Results

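The 6 mature miRNAs named for striated muscle, ssc-miR-1, ssc-miR-206, ssc-miR-133a-3p, ssc-miR-133a-5p, ssc-miR-133b and ssc-miR-499-5p, were taken by name from the 411 miRNAs listed for each of 5 pig body fluids. All 6 were listed above 0 in at least 1 fluid, as were 237 of the 411. The prefix ssc- is left out below. Exosomal small RNA of urine, bile, plasma, serum and semen was sequenced from pigs of the Chinese Rongchang breed aged 180 days, with 1 library per fluid. No treatment or genotype is given in the labels, and the sources used here do not state how many animals gave each fluid or whether animals were shared or pooled.

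Skeletal and heart muscle together are called striated muscle, and a few miRNAs are made there at very high levels. miR-1 and the miR-133 family are made in both heart and skeletal muscle and are processed from shared primary transcripts, in which miR-1 lies next to miR-133a and the skeletal muscle miRNA miR-206 lies next to miR-133b. miR-499 is made from an intron of a myosin heavy chain gene of heart and slow muscle fibres. In mouse, miR-1 and miR-206 favour the differentiation of myoblasts, miR-133 favours their division and represses the transcription factor SRF, and miR-499 acts on the slow fibre programme. In serum and plasma these miRNAs are widely used as markers of muscle or heart damage.

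In the RefSeq gene table of the pig assembly Sscrofa11.1, MIR1 and MIR133A-1 were immediate neighbours, as were MIR206 and MIR133B. A second copy of the miR-133a gene, MIR133A-2, lay within the span of MIB1. MIR499 lay within MYH7B, the myosin heavy chain gene noted above. miR-1 and miR-206 share their seed, the part of a miRNA that pairs with its targets, and miR-133a-3p and miR-133b differ only at the 3' end. The sources used here do not say how reads that match both members of such a pair were assigned, so the split between miR-133a-3p and miR-133b is uncertain, and to a lesser degree that between miR-1 and miR-206.

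The libraries held 26522 miRNA counts in urine, 1673239 in bile, 1153755 in plasma, 473168 in serum and 2284926 in semen. Every deposited count was 0 or at least 10, so a listed 0 stands for under 10 counts. On the scale of CPM (counts per 1000000 miRNA counts), 10 counts correspond to 377 CPM in urine, 5.98 in bile, 8.67 in plasma, 21.1 in serum and 4.38 in semen. Intervals are exact 95% intervals for counting error only, because with 1 library per fluid there is no replicate check and no p-value. The labels of the fluids were set against miRNAs known from their source organs. The liver miRNAs miR-122, miR-192 and miR-194a had their highest CPM in bile. The kidney epithelial miR-204 and both arms of miR-30a did so in urine. The germ cell miR-34c and the testis miR-202-5p were listed in semen alone. The red blood cell miRNAs miR-451, miR-486 and miR-144 were highest in serum. miR-202-5p rested on 11 semen counts (4.81 CPM), under the CPM of 10 counts in every other fluid. miR-34c (264 CPM) was under that of urine. miR-144 was level in plasma and serum within counting error (0.631 times, 0.376 to 1.08). The authors' library totals were 10796774 reads in urine and 10555126 in bile. Against them, bile stood above urine for miR-204 (260 counts against 125), miR-30a-5p (32430 against 5855) and miR-30a-3p (1580 against 227).

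The make-up of the striated muscle miRNAs was different in each fluid. Together they took 1.08% of the miRNA counts in urine (0.961 to 1.21), 0.328% in bile (0.319 to 0.336), 0.0688% in plasma (0.0641 to 0.0738), 0.256% in serum (0.241 to 0.270) and 0.0208% in semen (0.0190 to 0.0228). The place of urine depended on the total used. Of the authors' library total, the share was lowest in urine, at 0.00266%, and highest in bile, at 0.0519%. Bile held mostly miR-1, which took 88.0% of its 5483 striated muscle counts (87.1 to 88.9). Urine held miR-1 with 60.6% (54.7 to 66.3) and miR-206 with 39.4% (33.7 to 45.3) of 287 counts and no other member above 0. In plasma miR-206 led with 55.0% of 794 counts (51.5 to 58.5). Serum was the most even, with miR-133a-3p at 31.0%, miR-1 at 25.9%, miR-206 at 21.3% and miR-133b at 18.4% of 1209 counts. In semen miR-499-5p took 92.9% of 476 counts (interval from 90.2). These are shares of exosomal RNA, in which fewer vesicles from a tissue and less of a miRNA per vesicle cannot be told apart.

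**Figure D1:**
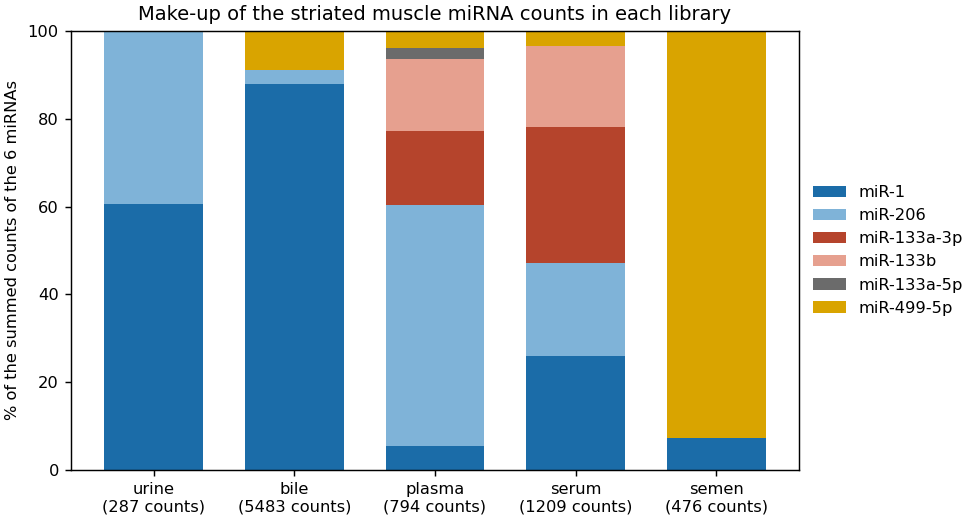
Percent of the summed counts of the 6 striated muscle miRNAs (y axis) in the 1 library of each fluid (x axis, with the sum in brackets), 1 colour per miRNA. Bile is mostly miR-1 (88.0%), plasma is led by miR-206 (55.0%), semen is mostly miR-499-5p (92.9%), and miR-133 is listed in plasma and serum and at 0 in urine, bile and semen.

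miR-1 was listed in all 5 fluids. It had 174 counts in urine, 4827 in bile, 42 in plasma, 313 in serum and 34 in semen, or 6561, 2885, 36.4, 661 and 14.9 CPM in the same order. Urine and bile were high, serum was intermediate, and plasma and semen were low. It was the 21st most abundant miRNA of urine, the 23rd of bile, the 112th of plasma, the 75th of serum and the 139th of semen. Urine stood 2.27 times above bile (1.94 to 2.65), bile 4.36 times above serum (3.89 to 4.90) and plasma 2.45 times above semen (1.52 to 3.96). Plasma was at 0.0550 times the serum CPM (0.0389 to 0.0761). Each step in the order urine, bile, serum, plasma, semen was thus larger than counting error.

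The place of urine in that order depended on the scaling. The authors' RPM (reads per 1000000 of a library total larger than the miRNA counts) gave miR-1 at 16.1 in urine, 457 in bile, 5.83 in plasma, 29.5 in serum and 3.15 in semen. On that scale urine was at 0.0352 times bile (0.0301 to 0.0410), and bile was 15.5 times serum (13.8 to 17.4). The listed miRNAs took 0.246% of the authors' library total in urine, against 4.47% to 21.2% in the other 4 fluids. With edgeR TMM library sizes urine was 1.05 times bile (0.899 to 1.22), level within counting error. Bile above serum, and serum above both plasma and semen, held under all 5 scalings.

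miR-206, the member made almost only in skeletal muscle, had 113 counts in urine, 172 in bile, 437 in plasma and 257 in serum, and was listed at 0 in semen. These were 4261 CPM in urine, 103 in bile, 379 in plasma and 543 in serum. On this scale urine was far above the rest, plasma and serum were near each other, and bile was the lowest of the 4 fluids that listed it. Urine stood 7.84 times above serum (6.23 to 9.82), plasma was at 0.697 times serum (0.596 to 0.817), and bile was at 0.189 times serum (0.155 to 0.230). The semen library would have held 1241 counts of miR-206 at the serum share and held under 10. On the authors' RPM the order was plasma with 60.6, serum with 24.3, bile with 16.3 and urine with 10.5, and urine was at 0.173 times plasma (0.139 to 0.213). Urine was level with plasma under TMM, at 1.003 times (0.808 to 1.24).

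**Figure D2:**
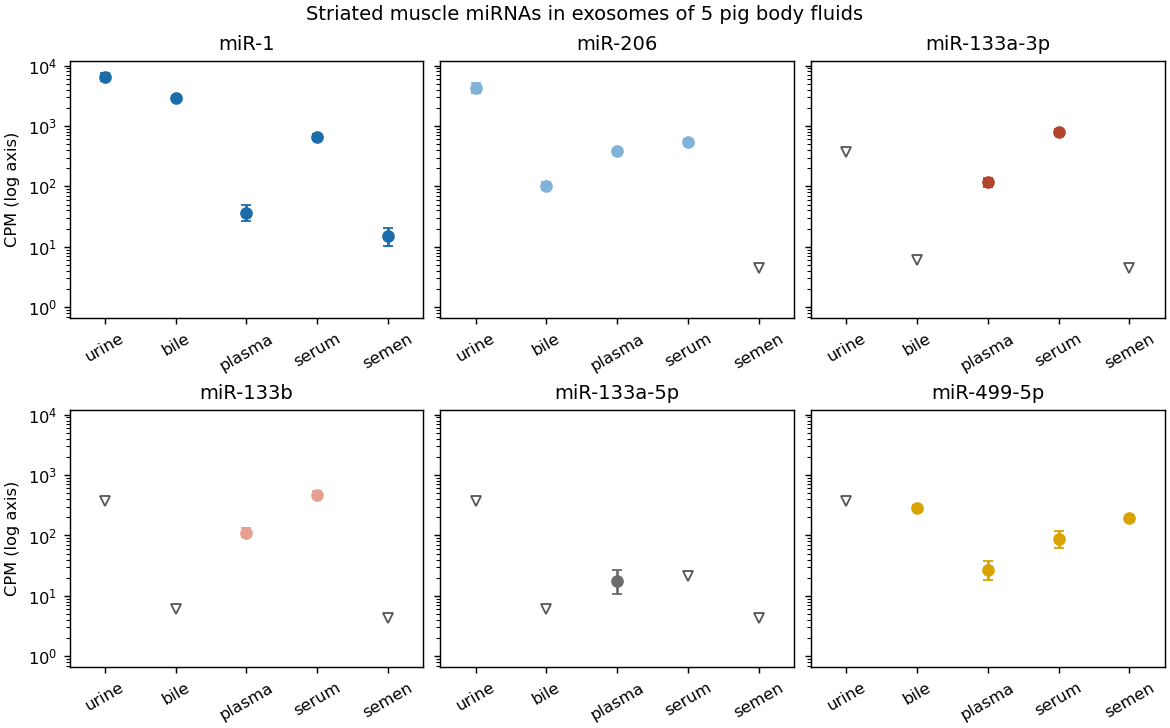
CPM of each striated muscle miRNA (y axis, log) in the 1 library of each fluid (x axis). Filled points carry exact 95% counting intervals, and open triangles mark a listed 0, drawn at the CPM of 10 counts, under which the value lies. miR-1 ranges from 6561 CPM in urine down to 14.9 in semen, and miR-133a-3p and miR-133b have filled points in plasma and serum and triangles in the other 3 fluids.

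The ratio of miR-1 to miR-206 within a library needs no scaling between libraries. It was 1.54 in urine (1.21 to 1.97), 28.1 in bile (24.1 to 32.9), 0.0961 in plasma (0.0683 to 0.132) and 1.22 in serum (1.03 to 1.44). In semen, where miR-206 was under 10 counts, it was at least 3.40 (counting interval from 1.64). Bile thus held far more miR-1 than miR-206, plasma far more miR-206 than miR-1, and urine and serum similar counts of both. The bile ratio was 292 times the plasma ratio (204 to 424) and 23.0 times the serum ratio (18.3 to 29.0). The plasma ratio was 0.0789 times the serum ratio (0.0539 to 0.114). The urine ratio was 1.26 times the serum ratio (0.938 to 1.71), a difference within counting error, and 0.0549 times the bile ratio (0.0411 to 0.0736). Of the 6 pairs among these 4 fluids, the pair of urine and serum was the only one whose interval included 1.

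miR-133a-3p, the main arm of the 2 miR-133a genes, had 135 counts in plasma and 375 in serum and was listed at 0 in urine, bile and semen. miR-133b, from the locus of miR-206, followed it with 129 counts in plasma and 223 in serum and the same 3 fluids at 0. In CPM, miR-133a-3p stood at 117 in plasma and 793 in serum, and miR-133b at 112 in plasma and 471 in serum. Both miR-133 miRNAs were therefore listed in the blood fluids alone. Plasma was at 0.148 times serum for miR-133a-3p (0.120 to 0.180) and at 0.237 times for miR-133b (0.189 to 0.296). Both directions turned with TMM and DESeq2 size factors, where plasma was 1.46 and 1.50 times serum for miR-133a-3p and 2.34 and 2.42 times for miR-133b. With urine at its floor of 377 CPM, serum was at least 2.10 times urine for miR-133a-3p (1.13 at the lower end). For miR-133b that bound was 1.25 (0.667 at the lower end), so a difference from urine was not detectable. miR-133a-5p, the other arm of the miR-133a hairpin, was listed in plasma alone with 20 counts.

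The bile and semen libraries were deep enough to list miR-133 at far lower shares than those of serum. At the serum share, miR-133a-3p would have had 1326 counts in the bile library and 1811 in the semen library, and miR-133b 789 and 1077. In urine the same shares would have given 21.0 and 12.5 counts, near the smallest count listed, so the urine values set a weaker limit. Serum stood at least 133 times above bile for miR-133a-3p (71.3 at the lower end) and at least 78.9 times for miR-133b (42.1). Among the 103 miRNAs with at least 100 counts in serum, 5.83% were listed at 0 in bile, 12.6% in semen and 40.8% in urine. Of the 4 members among them, miR-133a-3p and miR-133b were at 0 in bile, those and miR-206 in semen, and miR-133a-3p and miR-133b in urine. All 3 fluids were at 0 for 3.88%, or 4 miRNAs, which were miR-133a-3p, miR-133b, miR-9841-3p and miR-2320-3p. This count was made after the values were seen.

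miR-1 and miR-133a, which share a primary transcript, were thus split between the fluids. In plasma the ratio of miR-1 to miR-133a-3p was 0.311 (0.215 to 0.443), and in serum it was 0.835 (0.716 to 0.972). In bile it was at least 483 (262 at the lower end), in urine at least 17.4 (9.24) and in semen at least 3.40 (1.64). At the serum ratio, the miR-1 counts would have come with 208 counts of miR-133a-3p in urine, 5783 in bile and 40.7 in semen. miR-206 and miR-133b were split in the same way. Their ratio was 3.39 in plasma (2.78 to 4.16) and 1.15 in serum (0.959 to 1.39), but at least 11.3 in urine (5.92 at the lower end) and at least 17.2 in bile (9.13). At the serum ratio, 98.1 counts of miR-133b would have come with the miR-206 of urine and 149 with that of bile.

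**Figure D3:**
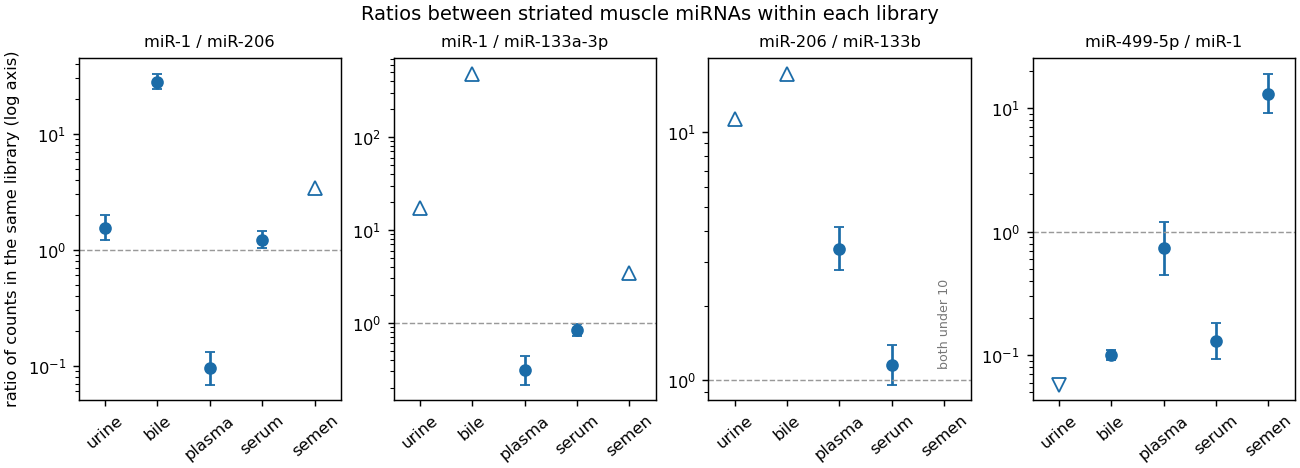
Ratios of counts of 2 striated muscle miRNAs in the same library (y axes, log, scale differing by panel) for each fluid (x axes). Points carry exact 95% counting intervals, upward triangles are lower bounds and downward triangles upper bounds from a listed 0 taken as 10 counts, and the dashed line marks equal counts. miR-1 over miR-206 spans 28.1 in bile to 0.0961 in plasma, and miR-1 over miR-133a-3p is at least 483 in bile and under 1 in plasma and serum.

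miR-499-5p, made in heart and slow skeletal muscle, followed neither pair. It had 484 counts in bile, 31 in plasma, 41 in serum and 442 in semen and was listed at 0 in urine. That was 289 CPM in bile, 26.9 in plasma, 86.7 in serum and 193 in semen, so that on this scale bile and semen were high and the blood fluids low. Bile was 1.50 times semen (1.31 to 1.71), 3.34 times serum (2.42 to 4.71) and 10.8 times plasma (7.48 to 16.0). On the authors' RPM bile and semen were level within counting error, at 1.12 times (0.983 to 1.28). The place of plasma depended on the scaling. Bile was 2.08 times plasma with TMM (1.44 to 3.09) and 1.62 times with DESeq2 size factors (1.13 to 2.42). Plasma was then at 0.785 times semen (0.527 to 1.13) and 0.760 times (0.510 to 1.09), level within counting error. Bile and semen stayed above serum, with TMM by 6.36 and 3.90 times. The bile share would have given 7.67 counts in the urine library, under the smallest count listed, so the level in urine was not detectable at this depth.

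Against miR-1 in the same library, miR-499-5p was scarce in bile, at a ratio of 0.100 (0.0911 to 0.110), and in serum, at 0.131 (0.0922 to 0.182). The bile ratio was 0.765 times the serum ratio (0.543 to 1.10), within counting error. In plasma the ratio was 0.738 (0.449 to 1.20), and in semen it was 13.0 (9.16 to 19.0). The plasma ratio was 5.63 times the serum ratio (3.06 to 10.3), and the bile ratio was 0.00771 times the semen ratio (0.00522 to 0.0111). In urine miR-499-5p was at most 0.0575 times miR-1 with the listed 0 taken as 10 counts (counting interval up to 0.108). The other arm, miR-499-3p, was at 0 in all 5 fluids, as was miR-208b, a heart and slow muscle miRNA that lies within MYH7 in the pig gene table.

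Plasma and serum are both made from blood, plasma before clotting and serum after it. In CPM, 119 miRNAs reached 100 counts in plasma or serum. Plasma was 2-fold or more below serum for 73.1% of them and 2-fold or more above it for 20.2%. Of the 4 members among them, miR-1, miR-133a-3p and miR-133b were at least 2-fold lower in plasma, a share near that of all miRNAs, and none was 2-fold higher. The median log2 ratio of plasma over serum was -2.77 over the 109 miRNAs above 0 in both. Other scalings gave a median of 0.53 (TMM), 0.57 (DESeq2 size factors), -2.29 (totals without the leading miRNA) and -0.93 (the authors' RPM). The members were therefore also set against the median, and their difference from it does not depend on the scaling.

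Relative to the median miRNA, miR-206 was 4.77 times higher in plasma than in serum, miR-499-5p 2.12 times and miR-133b 1.62 times. miR-133a-3p lay at the median, at 1.01 times, and miR-1 below it, at 0.377 times. The members thus spread to both sides of the general shift between these fluids. Within the blood fluids the ratio of miR-133a-3p to miR-133b was 1.05 in plasma (0.816 to 1.34) and 1.68 in serum (1.42 to 1.99), and the plasma ratio was 0.622 times the serum ratio (0.460 to 0.843). These intervals do not cover the unknown assignment of reads that match both miRNAs. The ratio of miR-206 to its neighbour miR-133b in plasma was 2.94 times that in serum (2.23 to 3.87), and the ratio of miR-1 to its neighbour miR-133a-3p was 0.373 times (0.249 to 0.550). The arms of miR-133a stood at 6.75 counts of the 3p arm for each of the 5p arm in plasma (4.20 to 11.4), and at 37.5 or more in serum (20.2 at the lower end).

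With TMM or DESeq2 size factors miR-206 and miR-133b were at least 2-fold higher in plasma, and none of the 4 members with 100 counts was 2-fold lower. miR-206 then came to 6.89 and 7.11 times serum and miR-133b to 2.34 and 2.42 times, while 43.7% of all 119 miRNAs were 2-fold higher under each of the 2 scalings. On the authors' RPM miR-206 was 2.50 times serum (2.14 to 2.93) and miR-1 0.197 times (0.139 to 0.273). miR-1 was below serum under each of the 5 scalings, from 0.0550 times in CPM to 0.561 times with DESeq2 size factors. The red blood cell miRNAs differed among themselves in the same contrast. miR-451 had 4139 CPM in plasma and 84805 in serum, and miR-486 had 1655 in plasma and 17286 in serum. miR-144 had 34.7 CPM in plasma and 54.9 in serum, from 40 and 26 counts. Relative to the median miRNA, plasma over serum was 0.334 for miR-451, 0.655 for miR-486 and 4.32 for miR-144, and miR-144 was higher in plasma on the authors' RPM (2.26 times) and after TMM (6.23) or DESeq2 scaling (6.43). Their part in the muscle miRNA values was not tested.

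**Figure D4:**
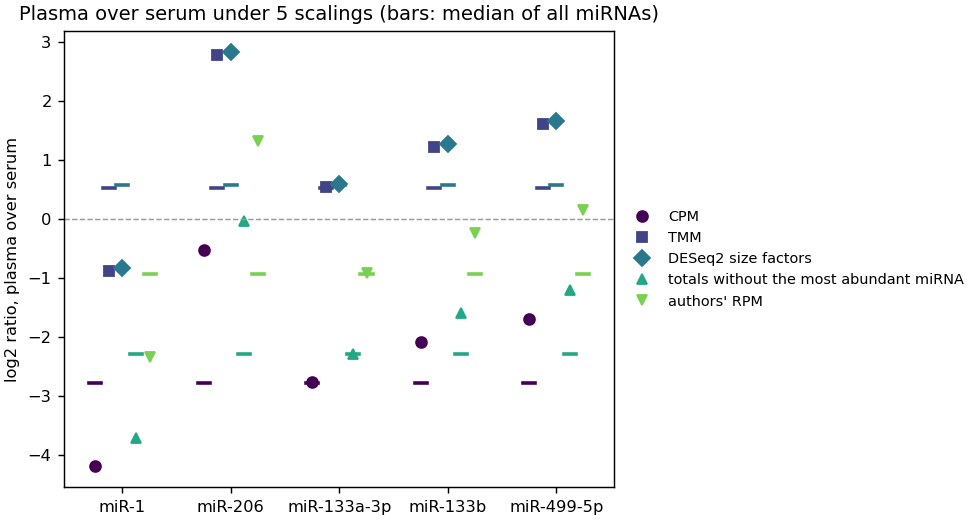
log2 ratio of plasma over serum (y axis) for the 5 striated muscle miRNAs listed in both (x axis), under 5 scalings of the libraries (symbols). Short bars give the median of 109 miRNAs under the same scaling, and the dashed line marks equal levels. miR-1 lies below the median bar under each scaling, miR-133a-3p on it, and miR-206 above it, with signs that change between scalings for 4 of the 5 miRNAs.

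Bile and serum were compared in the same way over the 138 miRNAs that reached 100 counts in bile or serum. Of these 28.3% were at least 2-fold higher in bile and 53.6% at least 2-fold lower. Of the 5 members among them, miR-1 and miR-499-5p were 2-fold higher in bile, and miR-206, miR-133a-3p and miR-133b were 2-fold lower. The members were thus divided between both directions, as all miRNAs were.

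Enrichment in a fluid was called at 100 or more counts and 4 or more times the CPM of each other fluid. This held for 26.9% of 26 miRNAs in urine, 3.48% of 115 in bile, 8.14% of 86 in plasma, 12.6% of 103 in serum and 1.8% of 111 in semen. Among the members it held for miR-206 in urine alone. Without the urine library it held for 9.57% of the 115 miRNAs in bile, miR-1 among them, and for 28.2% of the 103 in serum, among them miR-133a-3p and miR-133b of the 4 members there. On the authors' RPM it held for 11.3% of the 115 in bile and, of the members, for miR-1 in bile alone, and under TMM or DESeq2 size factors it held for no member.

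By highest CPM alone, miR-1 and miR-206 were highest in urine, miR-499-5p in bile, miR-133a-5p in plasma, and miR-133a-3p and miR-133b in serum. A listed 0 was ranked as 0 CPM. For miR-133a-5p the plasma value, 17.3 CPM, was under the CPM of 10 counts in serum (21.1) and urine (377). For miR-499-5p the bile value, 289 CPM, was under that of urine. The highest fluid of these members is therefore not settled. Of all 237 miRNAs, 15.6% were highest in urine, 15.2% in bile, 16.9% in plasma, 37.1% in serum and 15.2% in semen.

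Smooth muscle, the muscle of vessels, ducts and hollow organs, has its own miRNAs, miR-143 and miR-145. Their 4 listed arms took 0.309% of counts in urine (0.246 to 0.384), 2.29% in bile (2.27 to 2.31), 0.100% in plasma (0.0948 to 0.106), 0.227% in serum (0.213 to 0.241) and 0.00341% in semen (0.00270 to 0.00426). The ratio of striated to smooth muscle counts was 3.50 in urine (2.73 to 4.53), 0.143 in bile (0.139 to 0.147), 0.685 in plasma (0.625 to 0.750), 1.13 in serum (1.04 to 1.22) and 6.10 in semen (4.79 to 7.86). In bile miR-1 held 4827 of the 5483 striated muscle counts, and miR-143-3p 37946 of the 38338 smooth muscle counts. Without miR-1 the striated muscle share of bile was 0.0392%. miR-143-3p also made up all 82 smooth muscle counts of urine and all 78 of semen. The semen ratio rested on miR-499-5p, with 442 of the 476 striated muscle counts. The 34 counts of miR-1 there were fewer than the 78 of miR-143-3p. miR-145-5p had 175 counts in bile, 86 in plasma and 101 in serum and was listed at 0 in urine and semen. At the serum share it would have had 5.66 counts in urine, under the smallest count listed, and 488 in semen.

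**Figure D5:**
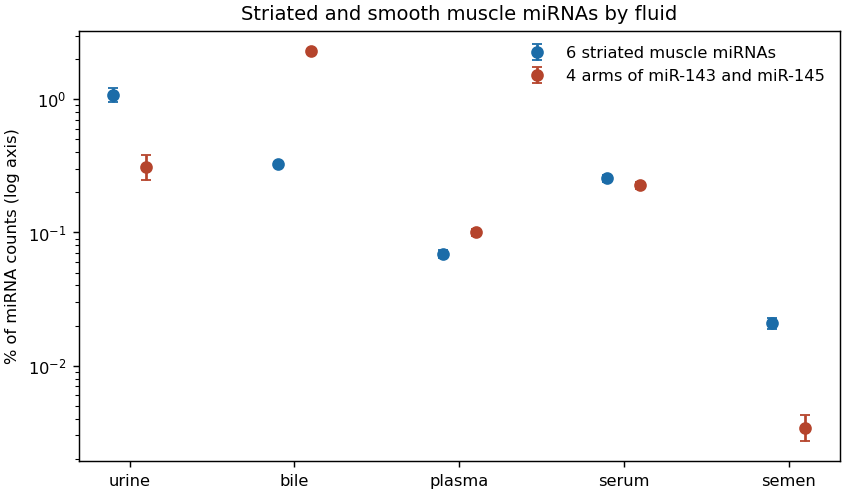
Percent of all miRNA counts (y axis, log) taken by the 6 striated muscle miRNAs and by the 4 arms of miR-143 and miR-145 in the 1 library of each fluid (x axis), with exact 95% counting intervals. The striated muscle miRNAs are lower than the smooth muscle miRNAs in bile (0.328% against 2.29%) and higher in urine and semen.

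Another list held 18 miRNAs known in mouse to be made in muscle or to act on myoblasts. Of these, 15 were above 0 in at least 1 fluid, and miR-208b, miR-499-3p and miR-503 were at 0 in all. By highest CPM, with a listed 0 again ranked as 0 CPM, 8 of the 15 were highest in serum. A further 4 were highest in urine and 1 each in bile, plasma and semen. Over all 237 miRNAs 37.1% were highest in serum and 15.6% in urine, and the difference between the lists was not tested. Among them miR-486, made from a muscle gene and also in red blood cells, had 1655 CPM in plasma, 17286 in serum, 39.4 in bile and 5.25 in semen, with urine at 0. miR-26a, which represses the chromatin enzyme EZH2 in myoblasts, was highest in urine with 42455 CPM, followed by semen with 32919. miR-378, which represses an inhibitor of MyoD, took 413974 CPM of plasma. Most of these miRNAs are made in many tissues.

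The median of the list's log2 differences between a fluid and the mean of the other 4, on log2(CPM + 1), was -0.03 in urine, 0.66 in bile, -0.89 in plasma, 1.27 in serum and -2.03 in semen. Over all 237 miRNAs these medians were -1.97, 0.49, -1.01, 1.82 and 0.38 in the same order. For the 6 striated muscle miRNAs they were -2.49, -0.89, 2.90, 1.78 and -4.03. The striated muscle value stood above those of both wider sets in plasma and below them in urine, bile and semen. Members listed at 0 entered these medians as 0 CPM, which in urine stands for anything under 377 CPM. This lifts the plasma value, because miR-133a-3p, miR-133b and miR-133a-5p were entered as 0 CPM in urine, bile and semen. For miR-133a-5p the same was done in serum. The plasma value is therefore no sign of a high level there. The summed share of plasma, 0.0688%, was below those of urine, bile and serum. Every member listed in both plasma and serum had the lower CPM in plasma.

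Profiles over the 5 fluids were compared by the mean absolute difference of centred log2 CPM, with values under 10 counts set to 10, among 161 other miRNAs that reached 100 counts in a library. Nearest to miR-499-5p was miR-374b-5p, at 0.27, with 11 counts in urine, 420 in bile, 19 in plasma, 46 in serum and 351 in semen. miR-340, at 0.40, and miR-151-3p, at 0.48, followed. The profile of miR-133a-3p was nearest to that of its relative miR-133b, at 0.23. Both were entered at 10 counts in urine, bile and semen, and the assignment of reads that match both is unknown. This distance is therefore no separate evidence that the 2 are alike. Outside the members miR-133a-3p was nearest to miR-9841-3p, at 0.47, and miR-142-3p, a blood cell miRNA, at 0.50. For miR-133b the same names came at 0.51 and 0.43. miR-9858-5p came next for both, at 0.94 and 0.70.

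miR-206 was nearest to miR-363, at 0.93, followed by miR-9858-5p at 1.14 and the smooth muscle miR-145-5p at 1.19. miR-1 had no close match. Its nearest were miR-199b-5p at 1.12, miR-365-3p at 1.17 and miR-126-5p, an endothelial miRNA, at 1.28, all of which were at 0 in urine. From miR-1 the distance was 1.97 to miR-206 and 3.16 to miR-133a-3p, beyond the median of 2.66 over the 161 miRNAs in the case of miR-133a-3p. The distance from miR-206 to miR-133b was 1.51, against a median of 2.69. Floors enter these distances wherever a miRNA was listed at 0, and in urine most of all.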

How the data were processed

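Exosomes were collected with an isolation reagent, RNA was extracted with Trizol, and gel-purified small RNA was ligated to adaptors, amplified and sequenced, per the labels' protocols. Per the submitters' processing notes, bcl2fastq 2.17 and genome build Sscrofa10.2 were used. Which aligner and miRNA annotation were used, and how multiply matching reads were counted, is not stated in the sources used here. The authors deposited 1 table per fluid with a read count for each of 411 mature miRNAs, and a column of RPM that the authors computed against a total larger than the miRNA counts, recovered here as counts divided by RPM.

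Shares and CPM were computed from the deposited counts. Shares carry Clopper-Pearson 95% intervals, ratios exact conditional binomial intervals, and quotients of ratios exact conditional odds ratio intervals (scipy 1.17.1). Without molecular identifiers in the protocol, these intervals cover counting error only. A listed 0 was taken as 10 counts in ratios, which are then bounds. Alternatives were edgeR 4.0.16 TMM sizes, DESeq2 1.42.0 size factors, totals less the leading miRNA, the authors' RPM, a floor of 3 counts, thinning to 26522 counts (median of 100 draws), other limits, and the urine or plasma library left out. The ratio intervals were tested on simulated counts. The enrichment code was tested on simulated libraries, all at the depth of semen and with no change placed in urine. That test does not cover calls at the depth of urine. All 6 members were named, with the 3 nearest profiles of each member that reached 100 counts. The members and lists were chosen with earlier results of these data known. No sequence was printed, because no miRNA sequence table was available here. The statements above on seeds and 3' ends were not checked against pig sequences.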

Additional observations from a re-analysis of the deposited data

How the results depend on the processing

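Ratios within a library do not depend on scaling. After thinning to the size of the urine library, miR-1 to miR-206 was 1.13 in serum. Urine was not thinned, and in the other 3 fluids a partner under 10 counts left no value. Urine over bile for miR-1, 2.27 in CPM, was 1.05 (TMM), 1.82 (DESeq2 size factors) and 0.0352 (the authors' RPM), and without urine the highest fluid, bile, was 4.36 times serum. For miR-206, urine over the next fluid, 7.84 in CPM, was 1.003, 1.36 and 0.173 against plasma in the same order, and without urine serum was 1.43 times plasma. For miR-133a-3p the fluid next to serum in CPM was urine at its floor, where 2.10 is a lower bound. With a floor of 3 counts or without urine, the next fluid was plasma. Serum was 6.77 times plasma in CPM, 4.85 times with totals less the leading miRNA and 1.89 times on the authors' RPM. This order turned under the other 2 scalings, where serum came to 0.686 (TMM) and 0.665 (DESeq2) of the plasma level. Enriched members, 1 in CPM, were 0 with TMM, with DESeq2 size factors and at 8 times, and 3 at a floor of 3 counts, without urine and at 2 times. The 3 members 2-fold apart between plasma and serum became 0 after thinning, where none kept 100 counts. The summed share became 1.39% in urine, 0.482% in bile, 0.117% in plasma, 0.312% in serum and 0.0442% in semen with totals without the most abundant miRNA. It became 0.00266%, 0.0519%, 0.0110%, 0.0114% and 0.00441% of the authors' library total, and 0.426%, 0.0392%, 0.0309%, 0.176% and 0.00149% without the leading member. The causes of these shifts were not tested, beyond the other totals that define them. No paired analysis was possible because each fluid has 1 library. Depth limits urine most, where 10 counts are 377 CPM.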
